A study of Caenorhabditis elegans with 2 samples.

Results

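Chromosome III carried 266 of the 1500 strongest SUP-37 binding regions of L1 larvae, or 17.7% of them, on 13.2% of the protein-coding genes. The regions were chosen by the authors' deposited signal, as the 1500 highest of 30000 in the list called on the pooled replicates, and those on chromosome III were kept. They are called peaks here, and they are set against the 934 peaks of chromosomes I, II, IV and V. The remaining 300 lay on the X chromosome and are not part of the comparison. SUP-37 was mapped by ChIP-seq in 1 group of 2 biological replicates of whole, mixed-sex worms. The larvae were starved after bleaching and 6 hours old. The strain, OP611, carries the unc-119 allele tm4063 and the transgene wgIs611, which holds sup-37 fused to TY1, EGFP and 3xFLAG together with a working copy of unc-119. DNA was recovered with an antibody against GFP according to the sample description, although the antibody label itself reads sup-37. Both replicates carry the same transgene, and untagged worms were not analysed here. Because whole larvae were used, strong binding in a few cells and weak binding in many cannot be told apart. Read depth is unknown, since the files hold regions and no read counts.

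Genes lie close together in the compact genome of C. elegans, so a binding site is often near more than a single gene. Neighbouring genes on opposite strands can be transcribed away from each other out of 1 shared stretch, a divergent promoter, and genes on the same strand can form operons whose downstream members are trans-spliced to the SL2 leader. Housekeeping genes, which every cell uses, tend to lie in the middle of the autosomes, while large families such as chemoreceptors and F-box genes fill much of the outer parts.

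The sequences under the strongest summits show what the peaks looked like. Shown are the 8 strongest peaks of chromosome III whose summit, with 50 bases to each side, lay outside annotated exons, on the plus strand of ce11 (the same assembly as WBcel235), from 5′ to 3′. Capitals mark any of 10 words of 6 bases, on either strand, that were more frequent at the summits of the other autosomes (their values follow further on). The windows are chrIII:3867515-3867615 at rpl-3, chrIII:12905144-12905244 at cox-5A, chrIII:7854634-7854734 at rpl-35, chrIII:1619083-1619183 between Y22D7AL.10 and hsp-60, chrIII:4282144-4282244 near sup-26, chrIII:13643680-13643780 between drr-2 and set-16, chrIII:10989574-10989674 near col-94 and chrIII:8904240-8904340 at lin-9.
rpl-3: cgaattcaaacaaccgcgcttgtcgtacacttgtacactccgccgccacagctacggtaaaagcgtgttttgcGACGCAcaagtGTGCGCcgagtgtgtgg
cox-5A: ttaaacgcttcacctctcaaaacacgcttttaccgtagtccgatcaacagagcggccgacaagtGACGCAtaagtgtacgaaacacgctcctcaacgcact
rpl-35: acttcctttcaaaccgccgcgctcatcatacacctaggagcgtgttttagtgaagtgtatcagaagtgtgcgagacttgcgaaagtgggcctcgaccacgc
Y22D7AL.10: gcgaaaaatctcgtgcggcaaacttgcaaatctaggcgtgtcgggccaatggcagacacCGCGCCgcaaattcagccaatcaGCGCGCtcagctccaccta
sup-26: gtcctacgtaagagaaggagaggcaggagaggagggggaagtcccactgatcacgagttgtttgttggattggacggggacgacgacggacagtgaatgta
drr-2: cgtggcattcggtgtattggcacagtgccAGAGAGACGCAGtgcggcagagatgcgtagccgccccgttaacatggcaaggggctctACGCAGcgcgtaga
col-94: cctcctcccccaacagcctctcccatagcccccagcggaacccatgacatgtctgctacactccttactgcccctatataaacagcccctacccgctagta
lin-9: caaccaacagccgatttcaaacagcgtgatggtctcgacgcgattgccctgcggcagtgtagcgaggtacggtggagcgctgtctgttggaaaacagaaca

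Each of these 8 peaks ranked 66 or better in both replicates. The peak at rpl-3, a protein of the large ribosomal subunit, had a deposited signal of 478 in replicate 1, 456 in replicate 2 and 933 in the pooled list, and it ranked first in all 3. The peak at tasp-1, a homologue of the protease taspase, ranked 2 in replicate 1, 4 in replicate 2 and 2 in the pooled list. Its summit lay 50 bp upstream of tasp-1, in a window shared with K01G5.10 on the other strand. The peak between tag-340 and nhl-2, a TRIM-NHL protein of small RNA silencing, ranked 6 in both the pooled and the replicate 1 list and 9 in replicate 2. That at cox-5A, which encodes part of cytochrome c oxidase, ranked 7, with 18 in replicate 1 and 5 in replicate 2. That of rpl-35, another large-subunit protein, ranked 12, with 17 in replicate 1 and 8 in replicate 2. The window between Y22D7AL.10 and hsp-60, the mitochondrial chaperonin, held a peak of rank 15, with 13 in replicate 1 and 18 in replicate 2. Its summit lay 204 bp from the 5′ end of Y22D7AL.10 and 609 bp from that of hsp-60. No rank of these 6 peaks passed 18 in either replicate.

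Among the 25 strongest peaks on chromosome III, 20 had their summit in a promoter window, reaching 1000 bp upstream and 200 bp downstream from the 5′ end of a protein-coding gene, 4 lay in introns and 1 was intergenic. Of the 25, 11 lay in the windows of at least 2 genes. Such pairs joined drr-2, a translation factor homologue, with set-16, a histone methyltransferase of the MLL family (rank 34), and rps-1 of the small ribosomal subunit with ifet-1, a translational repressor (rank 37). Others joined wip-1, the WASP-interacting protein, with larp-1, an RNA-binding protein (rank 66), and ska-3, of the outer kinetochore, with rps-12 (rank 67). The peak of rank 49 lay 6 bp downstream of the 5′ end of cux-7 in a window shared with C07H6.2 and lig-4, the DNA ligase of end joining, and that of rank 78 lay between fbxb-85, an F-box gene, and hex-3, a hexosaminidase. Promoter peaks of single genes included lin-9, of the DRM complex (rank 41), cbp-1, the CBP/p300 acetyltransferase (rank 47), fbxl-2 (rank 70), Y39E4B.6 (rank 71), C34C12.8 (rank 74) and pdhk-2, a kinase of pyruvate dehydrogenase (rank 82). The peak at ddp-1, of mitochondrial protein import, also fell in the window of ttc-7 (rank 84).

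The 5 summits outside promoter windows were of several kinds. The summit nearest sup-26, an RNA-binding protein, was intergenic, 1970 bp upstream (rank 33). Those of pqn-41 (rank 58), Y56A3A.7 (rank 64) and Y111B2A.12 (rank 87) were intronic, as was that of rank 40, whose nearest 5′ end was that of the collagen gene col-94 and which had the snRNA gene R07E5.16 within 200 bp. Back among the promoter peaks, that between Y75B8A.23 and tim-1, a Timeless homologue, had an SL2 spliced-leader gene, sls-2.8, within 200 bp (rank 88).

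All 25 of the strongest peaks were among the 1500 strongest regions of both replicates, with summits within 200 bp. Over all members this held for 149 of 266 (56.0%, exact 95% interval 49.8 to 62.1). Some members overlap and were counted separately. Those of ranks 33 and 306 nearest sup-26, for example, were matched to the same region in each replicate. A further 52 were found in replicate 1 alone, 46 in replicate 2 alone and 19 in neither. Of the 172 peaks that were also in the authors' replicate-filtered (IDR) list, 142 were found in both (82.6%), and of the 94 others, 7 were (7.45%). The authors filtered the IDR list for agreement of the replicates, and its peaks are the stronger members, so this contrast follows from how the lists were made. In the full lists, 7 members had no replicate 1 region within 200 bp and 1 had no replicate 2 region, so they have no rank difference. Among the rest, the largest rank differences were at sca-1, the calcium pump of the sarcoplasmic reticulum (402 in replicate 1 and 22376 in replicate 2), and psd-1. At psd-1, phosphatidylserine decarboxylase, the ranks were 617 in replicate 1 and 19403 in replicate 2. At baf-1, a chromatin protein of the nuclear envelope, the ranks were 19142 in replicate 1 and 787 in replicate 2, and at akap-1, an anchor of protein kinase A, 921 in replicate 1 and 18675 in replicate 2.

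The deposited signal of the 266 peaks ran from 95.2 to 933 with a median of 137, against a median of 126 on the other autosomes. The last chromosome III peak inside the threshold, at Y54H5A.2, ranked 1499 with 95.2, and the first outside it, at erd-2.2, a KDEL receptor, ranked 1507 with 95.1. The threshold thus cut through a continuous range of values. One intronic peak of rank 1119 lay inside unc-119, the gene whose working copy the transgene carries.

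Per gene, chromosome III stood first of the 5 autosomes. It carried 10.1 peaks per 100 protein-coding genes, against 8.76 on I, 6.38 on II, 7.04 on IV and 4.63 on V. Against those 4 together (6.40) the ratio was 1.58 (95% interval 1.37 to 1.81). This excess is what chose these peaks, so it is described and not tested. The ratio was 1.15 against chromosome I and 2.18 against V, so I was much nearer to III than V was. Per Mb the values were 19.3 on III, 16.7 on I, 14.4 on II, 13.2 on IV and 11.04 on V, and the ratio to the 4 together was 1.42 (1.24 to 1.63). Replicate 1 alone placed 304 of its 1500 strongest regions on III, at 11.5 per 100 genes, and replicate 2 alone placed 266, at 10.1. The ratio was 1.84 in replicate 1 and 1.57 in replicate 2, and III came first in each. Summits followed one another at a median distance of 28293 bp on III, against 36628 to 46860 bp on the other autosomes, and 58 neighbouring pairs were under 5000 bp apart (21.9%, against 19.1 to 21.7% on the others). The longest stretch without a summit held 64 genes over 407435 bp, against 412670 bp on I to 952827 bp on II.

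**Figure D1:**
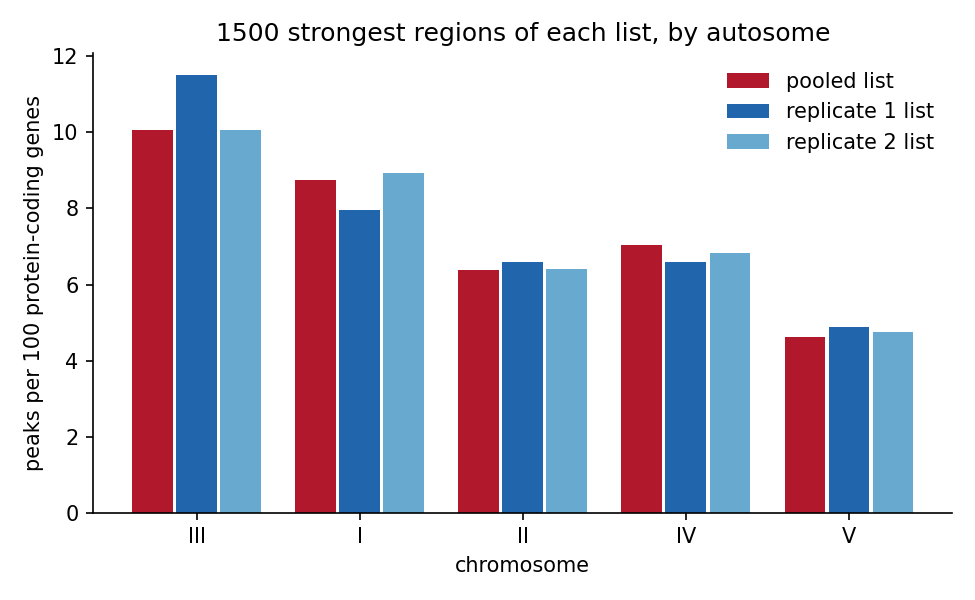
Peaks per 100 protein-coding genes (vertical axis, from 0) on each autosome, for the 1500 strongest regions of the pooled list and of each replicate list. Chromosome III has the highest bar of each list, at 10.1 (pooled), 11.5 (replicate 1) and 10.1 (replicate 2), and chromosome I comes second in each.

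The excess was largest at the top of the list and became smaller along the ranks. Among ranks 1 to 100, 25 regions lay on III and 60 on the other autosomes, a ratio per gene of 2.30 (1.38 to 3.73). The ratio was 1.72 above rank 100 and up to 500, 1.5 at ranks 501 to 1000 and 1.40 at 1001 to 1500. Among regions outside the 1500 it was 1.58 at ranks 1501 to 3000, 1.40 at 3001 to 5000, 1.32 at 5001 to 10000, 1.25 at 10001 to 20000 and 1.13 (1.07 to 1.20) at 20001 to 30000. Per base the last group had 1.02, so the weakest regions lay on III about as often as its length gives. The intervals of neighbouring groups overlapped, and the decline was not strict in any of the 3 lists. Ranks 1 to 100 had a ratio of 1.99 in replicate 1 and 2.23 in replicate 2, and ranks 20001 to 30000 had 1.20 in replicate 1 and 1.15 in replicate 2.

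**Figure D2:**
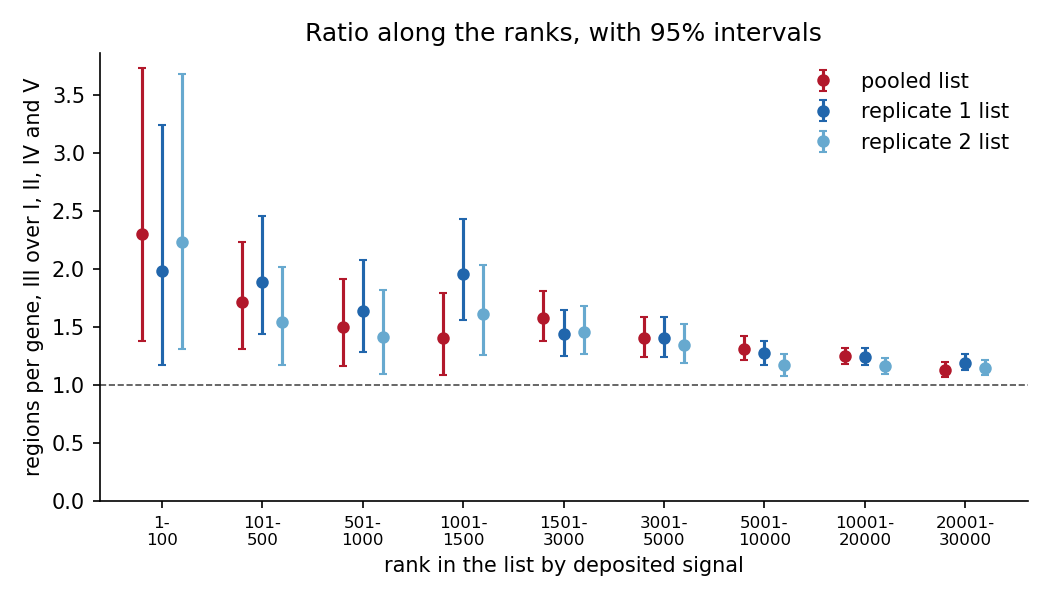
Regions per protein-coding gene on chromosome III over those on I, II, IV and V (vertical axis, linear) by rank in each list (horizontal axis), with 95% intervals that cover counting error only; the dashed line marks 1. The pooled values run from 2.30 at ranks 1 to 100 down to 1.13 at ranks 20001 to 30000, with a rise at ranks 1501 to 3000.

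The promoter share became smaller along the ranks on both sides. It was 80% on III and 76.7% on the other autosomes at ranks 1 to 100, and 58.7% on III and 64.7% on the others from there up to 500. At ranks 501 to 1000 it was 50.6% on III and 50.3% on the others, and at 1001 to 1500 36.1% and 39.1%, III first. In each of these groups the intervals overlapped.

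Along chromosome III the peaks were not gathered in 1 place. Cut into 10 segments of equal length, it held 15, 17, 26, 33, 26, 31, 30, 32, 30 and 26 peaks from the left end to the right. Per 100 genes, the segments ran from 6.10 in segment 1 to 14.7 in segment 9. The density per gene was above that of the other 4 autosomes taken as 1 sum in 9 of the 10 segments. Against each of them alone, III was highest in segments 3, 8 and 9 only. In segment 2 it had 8.63 and IV had 13.2, in segment 7 it had 9.71 and I had 11.9, and in segment 10 it had 12.04 and II had 13.8. The ratio to the sum was 0.96 in segment 1, 1.77 in segment 2 and 1.82 in segment 3, lay at 1.26 to 1.39 from segment 4 to segment 7, and was 2.26 in segment 8, 2.97 in segment 9 and 1.65 in segment 10. In segment 9 it was 3.29 in replicate 1 and 2.19 in replicate 2, and the number of segments above 1 was 10 in replicate 1 and 9 in replicate 2. The segments with most peaks had their strongest summits at tag-340 (segment 4), tasp-1 (segment 8) and rpl-35 (segment 6). Those with fewest had theirs at gei-4 (segment 1, rank 104) and between Y22D7AL.10 and hsp-60 (segment 2), followed by 3 segments of 26 peaks each, led by rpl-3 (segment 3), ska-3 and rps-12 (segment 5) and cox-5A (segment 10).

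**Figure D3:**
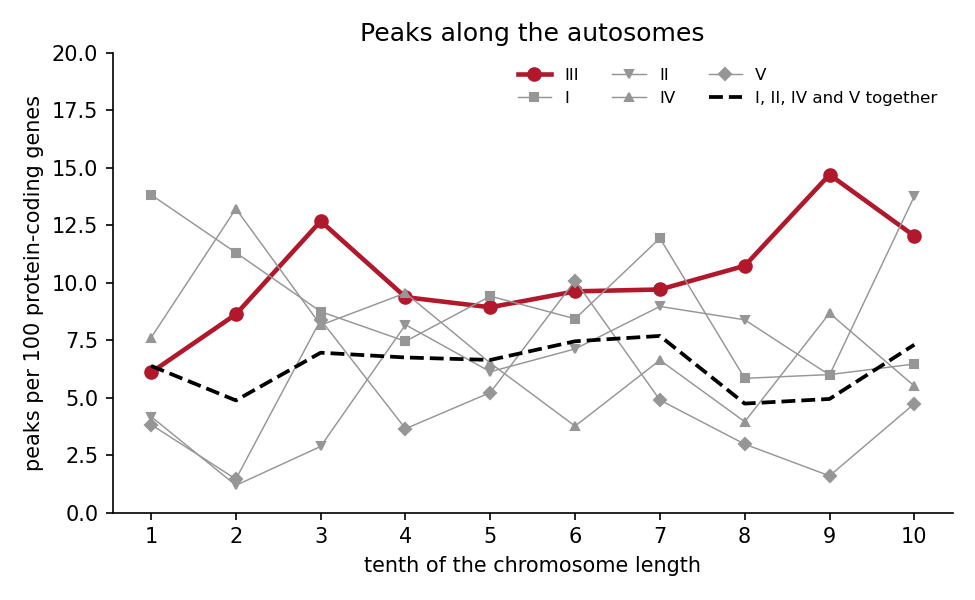
Peaks per 100 protein-coding genes (vertical axis) in each of 10 segments of equal length (horizontal axis), for chromosome III (red), for I, II, IV and V alone (grey) and for these together (dashed). Chromosome III is highest in segment 9, at 14.7, and lies below the dashed line in segment 1, where it has 6.10.

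In the central part of the chromosome, from 25 to 75% of its length, there were 9.85 peaks per 100 genes on III and 7.05 on the other autosomes, a ratio of 1.40. In the outer parts there were 10.4 on III and 5.60 on the others, a ratio of 1.86. The outer parts of III were therefore about as dense per gene as its middle. The same held for I, with 8.69 in the middle and 8.85 in the outer parts, and IV had 6.36 and 8.03. Outer parts were sparser than the middle on V, with 6.21 in the middle and 2.87 outside it, and on II, with 7.48 and 5.19. In the outer parts the ratio of III was 1.18 to I, 1.29 to IV, 2.00 to II and 3.62 to V. In the middle it was 1.13 to I, 1.55 to IV, 1.32 to II and 1.59 to V.

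The kinds of places that the peaks occupied did not differ detectably between chromosome III and the other autosomes. The summit lay in a promoter window at 136 of 266 peaks on III (51.1%, 44.9 to 57.3) and at 484 of 934 on the others (51.8%), a difference of -0.69 percentage points with an interval of -7.47 to 6.06 (2-sided Fisher's exact test with an adjusted exact p of 0.889, where the adjustment covered the 9 properties). Of the promoter peaks, 49 of 136 on III (36.0%) and 32.02% on the others lay in divergent promoters, with 5′ ends on opposite strands at most 2000 bp apart, a difference of 4.0 points with an interval of -4.70 to 13.3. The III share was above that of each other autosome alone, which ran from 29.9 to 33.3%, but the adjusted exact p was 0.701. Coding exons held 6.77% of the peaks on III and 5.67% on the others, introns 22.6% and 21.1%, and intergenic sequence 17.7% and 19.4%, III first. The nearest bound gene had less than 1000 bp of free upstream sequence at 57.4% of the promoter peaks on III and 61.2% on the others. In the central part lay 57.9% of the peaks on III and 60.6% on the others. A noncoding RNA gene stood within 200 bp of 22.2% on III and 23.9% on the others, and 56.0% on III and 51.3% on the others were found in both replicates. These last 7 properties all had an adjusted exact p of 0.701. The intervals still allow differences of several points in either direction, and peaks are not replicates, so the tests speak of these 2 libraries alone. Overlapping peaks entered them as separate peaks.

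**Figure D4:**
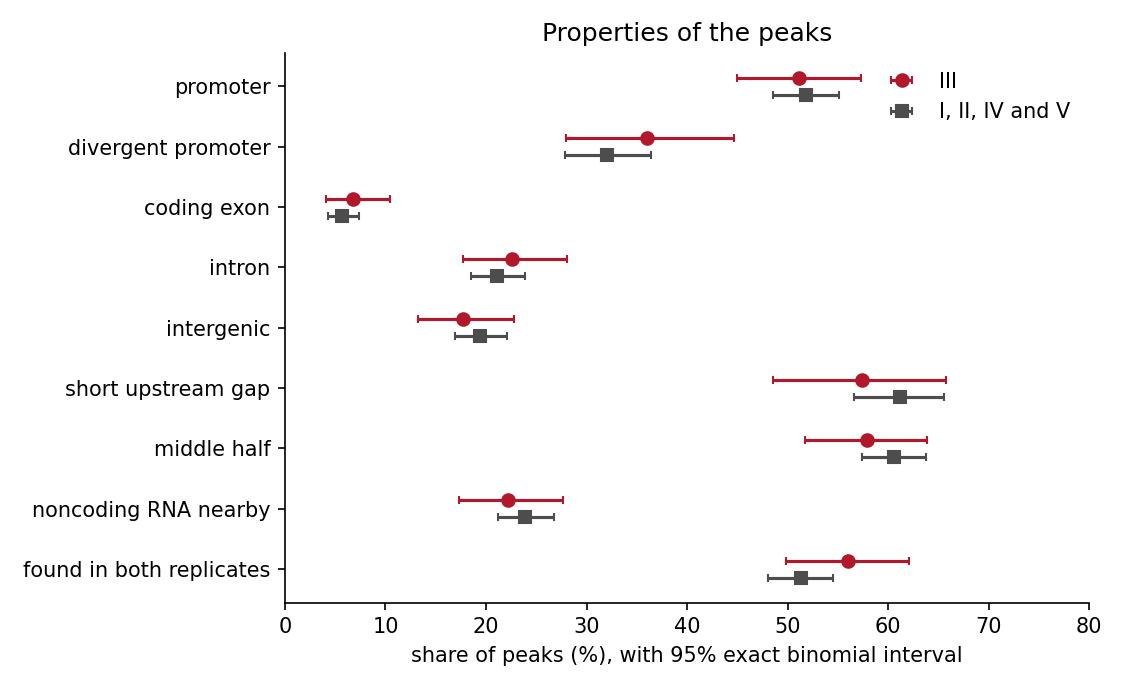
Share of peaks (horizontal axis, %) with each of 9 properties on chromosome III (red circles) and on I, II, IV and V (grey squares), with 95% exact binomial intervals. The intervals of each pair overlap, the widest gap being 36.0% on III against 32.02% on the others for divergent promoters and 56.0% against 51.3% for peaks found in both replicates.

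The excess was present both at promoters and away from them. Per base of promoter window the ratio of III to the other autosomes was 1.58 (1.29 to 1.91), from 136 peaks on III and 484 on the others. Per base outside these windows it was 1.40 (1.14 to 1.70), from 130 peaks on III and 450 on the others. Against chromosome I alone, which also had 136 promoter peaks, the ratio was only 1.09 in promoter windows and 1.23 outside them. Against V alone it was 2.13 and 1.70. At promoters 123 of 136 summits (90.4%) were upstream of the nearest 5′ end on III, against 85.1% on the others. These upstream summits lay at a median of 204 bp from it on III and 214 bp on the others. Of the 136 promoter summits on III, 54 (39.7%) lay in the windows of 2 or more genes, against 36.0% on the others.

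Among noncoding genes within 200 bp of a summit, tRNA genes stood at 12 peaks on III (4.51%) and 29 on the others (3.10%), and snRNA genes, which include the spliced-leader genes, at 7 (2.63%) and 15 (1.61%). Genes of snoRNAs, which guide RNA modification, stood at 6 (2.26%) on III and 51 (5.46%) on the others, and those of miRNAs at 3 on each side. The largest kind, annotated only as ncRNA, stood at 38 on III (14.3%) and 167 on the others (17.9%). The annotation holds 64 tRNA, 13 snRNA, 54 snoRNA, 27 miRNA and 764 ncRNA genes on III. On the others it holds 272, 113, 259, 160 and 4480, in the same order. These kinds were not tested one by one.

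Gene spacing on chromosome III was close to that of chromosome I. The median free sequence upstream of a protein-coding gene was 657 bp on III, against 672 on I, 827 on II, 919 on IV and 944.5 on V, and 60.2% of genes on III had less than 1000 bp, against 54.5% on the others together. Bound genes, those with a summit in the promoter window, had a median of 577 bp on III and 555.5 bp on the others. They were 196 of 2640 genes on III (7.42%) and 636 of 14602 on the others (4.36%), and 4.83% of all autosomal genes. On chromosome I the share was 6.18%, on II 4.35%, on IV 4.30% and on V 3.34%.

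The share of bound genes was higher on III in every class of spacing, though not in every orientation within a class. Genes that begin inside another gene were bound at 4.10% on III and 3.29% on the others, and those with 1 to 250 bp upstream at 5.40% and 4.15%, III first. With 251 to 500 bp it was 13.6% on III and 9.14% on the others, the densest class on both sides. With 501 to 1000 bp it was 10.3% on III and 4.95% on the others, with 1001 to 2000 bp 5.82% and 4.13%, and with more than 2000 bp 5.95% and 2.27%, III first. Within this last class, genes with a divergent neighbour were bound at 8.13% on III (30 of 369) and 2.59% on the others, a ratio of 3.13, and within 501 to 1000 bp at 15.4% (38 of 246) and 7.26%, a ratio of 2.13. With a neighbour on the same strand the 501 to 1000 bp class had 3.96% on III and 3.06% on the others. Same-strand genes with 1 to 250 bp were bound at 4.51% on III and 2.49% on the others, a ratio of 1.81. Those with more than 2000 bp were bound at 3.44% on III and 1.88% on the others, a ratio of 1.83. Those with 1001 to 2000 bp were bound at 2.65% on III and 2.31% on the others. In 2 groups III was not higher: genes with a divergent neighbour and 1 to 250 bp upstream were bound at 7.97% on III and 8.70% on the others, and genes with a neighbour on the same strand and 251 to 500 bp at 4.52% on III and 4.55% on the others. Both genes of a divergent promoter can share a summit, so these gene counts are not independent, and the differences between classes were not tested.

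Housekeeping genes made up more of chromosome III than of most autosomes. By WormBase gene names, 17 lists of housekeeping genes held 144 genes on III, or 5.45% of its genes, against 5.87% on I, 3.62% on II, 3.63% on IV and 1.82% on V. The 7 families chosen as a contrast (chemoreceptors, collagens, nuclear hormone receptors, C-type lectins, F-box and MATH genes, major sperm proteins and detoxification enzymes) held 146 genes on III, or 5.53%, against 15.7% on the others together and 26.5% on V. Of the housekeeping genes, 29 on III were bound (20.1%, 13.9 to 27.7), at 27 sites, against 110 of 504 on the others (21.8%). Counting only the gene with the nearest 5′ end, within 2000 bp of the summit, gave 19 on III in place of 29, since many of the genes named here are the farther ones in a shared window. Beside the 7.42% of all III genes and 4.36% of the others', the housekeeping share was higher on both sides. Between III and the others its order depended on the list: it was 17.4% on III and 16.7% on the others in the IDR list, 15.97% and 14.5% in the 750 strongest, and 27.8% and 25.2% in the 3000 strongest, III first. Of the contrast families, 2 of 146 were bound on III (1.37%) and 17 of 2286 on the others (0.74%).

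Genes in neither kind of list were bound more often on III. Being in no list means only that the gene name matched none. This group therefore also holds housekeeping genes that the lists missed, such as ndua-8 of complex I (rank 376). Unlisted genes were bound at 7.02% on III (165 of 2350) and 4.31% on the others (509 of 11812), a ratio of 1.63. The share was 5.38% on I, 4.35% on II, 3.90% on IV and 3.83% on V. In replicate 1 alone these genes were bound at 6.09% on III and 3.59% on the others, and in replicate 2 alone at 7.02% and 4.49%, III first. Housekeeping genes were bound at 15.3% on III and 17.3% on the others in replicate 1, and at 22.9% on III and 21.4% on the others in replicate 2, so their order changed between the replicates while that of the unlisted genes did not.

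**Figure D5:**
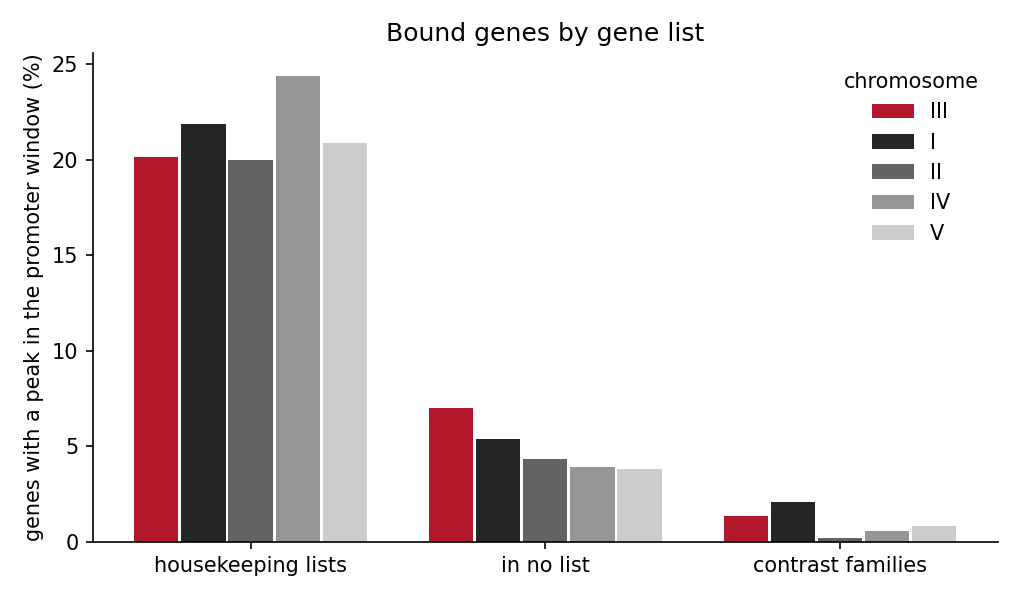
Share of protein-coding genes with a peak in the promoter window (vertical axis, %) for housekeeping lists, genes in no list and contrast families, on chromosome III (red) and on I, II, IV and V (grey shades). Chromosome III has the highest share among genes in no list (7.02%), while its housekeeping share (20.1%) lies among those of the other autosomes.

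Cytosolic ribosomal protein genes had the highest bound share among the lists with at least 12 genes on III. Of 20 cytosolic ribosomal protein genes on III, 7 were bound (35.0%), against 24 of 61 on the others (39.3%). They were rpl-3, rpl-35, rps-1 and rps-12, described above, and ubq-2, which encodes ubiquitin fused to a ribosomal protein (rank 520), rps-0 (rank 578) and rpl-23 (rank 972, with 16516 in replicate 1 and 390 in replicate 2). Of 22 mitochondrial ribosomal protein genes, 3 were bound on III, mrpl-12 (rank 283), mrpl-45 (rank 460) and mrps-17 (rank 1156), against 6 of 48 on the others. Translation factors had 2 of 6 on III, eef-1B.1 (rank 277) and eef-1A.1, the elongation factor that brings tRNA to the ribosome (rank 422), against 6 of 31. Of 6 aminoacyl-tRNA synthetase genes on III, 0 were bound, against 2 of 26.

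The oxidative phosphorylation list had 4 of 13 genes bound on III and 4 of 32 on the others. Those on III were cox-5A, nduf-2.2 of complex I (rank 148, in a promoter shared with dlc-1, a dynein light chain), mev-1 of succinate dehydrogenase (rank 182) and cox-6A (rank 342). The list was made by gene names and is not complete. It lacks ndua-8, also of complex I, which lies in the window of the rank 376 peak, so these counts are of listed genes only. Splicing factors had 4 of 10 on III and 6 of 30 on the others. Those on III were prp-19 (rank 265), prp-8 (rank 317), prp-40 (rank 622) and sftb-1, of the SF3B complex (rank 1123). The sftb-1 peak ranked 3885 in replicate 1 and 898 in replicate 2. The proteasome list had 2 of 8 on III and 4 of 25 on the others. Its regulatory subunits rpn-3 and rpn-2 ranked 156 and 918, and the rpn-3 summit was shared with the chaperone gene hsp-110, so that 1 peak served 2 lists. Chaperones had 2 of 12 on III, hsp-60 and hsp-110, and 12 of 48 on the others. The peak of rank 422 was likewise shared, between eef-1A.1 and rfc-4, a subunit of the clamp loader, and it ranked 5038 in replicate 1 and 247 in replicate 2.

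The remaining lists had few genes on III. RNA polymerase II and its coactivators had 2 of 12 bound on III and 10 of 44 on the others. The 2 were the Mediator subunit mdt-19 (rank 151) and taf-12 of TFIID (rank 1050). The mdt-19 peak ranked 106 in replicate 2 and had no replicate 1 region within 200 bp. DNA replication had 2 of 4, rfc-4 and mcm-10 (rank 903, with 4047 in replicate 1 and 790 in replicate 2), and 4 of 20. The cell cycle list had 1 of 5, cdk-5 (rank 464), which is in the list by its name alone, and 8 of 31. Nuclear pore and transport genes had 0 of 8 on III and 11 of 32 on the others, and the secretory coats had 0 of 4 and 6 of 19. No gene of the vacuolar ATPase (0 of 4), RNA polymerases I and III (0 of 2), nucleolus and exosome (0 of 3) or ubiquitin enzyme (0 of 5) lists was bound on III. With so few genes, a count of 0 still allows large shares: for the 8 nuclear pore genes the exact interval reaches 36.9%. The 2 bound genes of the contrast families were fbxb-85 (rank 78) and bath-42, which shares the prp-8 peak (rank 317).

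Counting by peak, 28 of the 136 promoter peaks on III (20.6%, 14.1 to 28.4) had a housekeeping gene in their window, against 113 of 484 on the others (23.3%). The other 108 on III and 371 on the others had none, so most promoter peaks on both sides were at genes outside these lists. Of all protein-coding genes, these lists held 5.45% on III and 3.45% on the others.

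How much of the excess went along with these gene properties was described by standardisation. The number of bound genes expected on III was computed from the rates of the other autosomes within classes of genes, and compared with the 196 observed. With no classes 115.0 were expected, a ratio of 1.70. Classes by upstream spacing and orientation gave 1.63, by middle or outer position 1.68 and by gene list 1.47. With all of these together 137 were expected, and the ratio was 1.43. The same steps moved chromosome I from 1.36 to 1.11, V from 0.62 to 0.81, II from 0.88 to 0.87 and IV from 0.87 to 0.85. A logistic model over 17242 genes gave an odds ratio for III of 1.76 (1.49 to 2.08) with no further terms and 1.54 (1.29 to 1.82) with all of them. It took genes as independent, although the 196 bound genes on III shared 134 sites, so these intervals are too narrow. They are no test of the excess, which chose these peaks. Gene lists thus moved the ratio most. They were made by gene names and miss some housekeeping genes, so these classes separate such genes only in part. Leaving out the listed housekeeping genes raised the ratio of bound shares to 1.79. Leaving out the contrast families, a smaller share of genes on III than on the others together, lowered it to 1.55. Part of the excess remained beside each set of classes that was tried. Properties not in the files, such as how strongly or broadly a gene is expressed, were not tested.

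Words found at the summits of the other autosomes were then counted at the summits and flanks of chromosome III. Words of 6 bases, counted on both strands, were compared between windows reaching 50 bp to each side of a summit and windows of the same size centred 400 bp away on either side. On the other autosomes 530 of 2080 words (25.5%) were more frequent at summits by a factor of at least 1.5 with an adjusted exact p under 0.05. Of these 530, 256 (48.3%) also passed on III, which has fewer peaks, and 491 were more frequent at summits there than in flanks. The share of all 2080 words that did so on III was not computed, so these 2 counts have no background beside them. Of the 10 words with the smallest p on the other autosomes, 5 were more frequent at summits and 5, all of A and T, less frequent.

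GACGCA had the largest contrast of the 5 more frequent ones on III. It stood at 53 of 266 III summits (19.9%), in 2.07% of III flanks and in 2.58% of III promoters without a peak (2-sided Fisher's exact test against flanks, adjusted exact p = 1.19e-14), and at 15.95% of summits on the other autosomes. ACGCAG, which overlaps it, stood at 16.5% of III summits and 14.7% of the others'. GAGAGA stood at 27.4% of III summits and 6.95% of III flanks (adjusted exact p = 3.52e-12), and at 23.4% of the others' summits, and AGAGAG, which overlaps it, at 21.8% on III and 21.4% on the others. GCGCCA stood at 13.2% of III summits and 12.6% of the others'. The drr-2 window printed above holds 4 of these words in 1 overlapping run. The 5 less frequent words were AAAATT (13.9% of III summits and 41.5% of III flanks), AAAAAT (19.9% and 48.7%), TAAAAA (12.03% and 32.1%), AAATTT (10.2% and 24.6%) and TTAAAA (7.52% and 29.3%), summits first. Base composition moved with these words: G and C made up 48.2% of III summit windows, 36.2% of III flanks and 33.8% of III promoters without a peak, and 47.0% of the others' summits. Its part in the word counts was not tested.

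The capitals in the printed windows mark the 10 words of smallest p among those more frequent at summits: the 5 above and CGCAGA (at 15.4% of III summits), GCGCGC (8.27%), CGCGCC (8.65%), GCGCAC (11.7%) and CGTCTC (22.6%). Some overlap one another, and matches on both strands were counted. At least 1 of them stood in 170 of 266 III summit windows (63.9%), against 19.5% of III flanks and 20.6% of 2444 III promoters without a peak. On the other autosomes it was 58.4% of summits and 16.8% of flanks. Between III and the other autosomes none of the 10 passed a 2-sided Fisher's exact test, a comparison added after the data were seen. The smallest adjusted exact p was 0.0954, for CGTCTC, at 22.6% of III summits and 15.5% of the others'. Of the 8 windows printed, those at rpl-35, sup-26, col-94 and lin-9 hold none of the 10, so strong peaks occurred without them.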

How the data were processed

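The deposited lists hold regions that the authors called on ce11 for each replicate and for the pooled alignments, and a list they thresholded by IDR. For the caller, the aligner and the IDR threshold, names and versions are not given in these sources. The authors' deposited signal per region has no stated scale and served only to rank and describe regions within a list. The pooled list and each replicate list hold 30000 regions, and all IDR regions are among the strongest of the pooled list. Summits are region start plus deposited offset. The gene annotation was Ensembl release 115 and the sequence RefSeq's, both WBcel235. Classes were assigned in the order promoter, coding exon, 5′ UTR, 3′ UTR, intron, intergenic. Depth is unknown, so precision rests on numbers of peaks; exact (Clopper-Pearson) 95% intervals cover counting error only. Fisher's exact tests were adjusted by Benjamini-Hochberg. Python 3.11.15, scipy 1.17.1 and statsmodels 0.14.6 were used, and code was tested on simulated data. Named were the 25 strongest peaks, up to 3 bound genes per list (further bound genes were added after their values were seen), threshold neighbours, the leading peaks of segments, the 10 words, divergent pairs and the largest rank differences. The members and lists were chosen with earlier results of these data known. Alternatives were other list lengths, the IDR list, single replicates, windows, denominators, classes and word lengths.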

Additional observations from a re-analysis of the deposited data

How the results depend on the processing

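None of 72 alternatives for the 9 property shares passed the threshold (lowest adjusted exact p = 0.344), and the sign of 12 differences, all short of the threshold, changed. The promoter difference (III minus others, percentage points) was 1.19 with the 3000 strongest, 1.28 with windows of 2000 to 500 bp and -2.99 to 1.09 in single replicates. The intron difference was -0.30 with windows of 500 to 100 bp, -0.21 with 2000 to 500 bp and -1.42 to 0.65 in single replicates. The intergenic one was 1.21 with windows of 500 to 100 bp and -1.02 to 0.84 in single replicates, the divergent one -1.67 with 2000 to 500 bp, the coding exon one -0.45 with the 3000 strongest, and that of peaks found in both replicates -1.29 with the 750 strongest and -1.63 to 6.83 in single replicates. The ratio of peaks per gene, 1.58, was 1.82 with the 750 strongest, 2.73 per annotated gene of any kind (1.65 without piRNA genes, which crowd chromosome IV, an alternative chosen after seeing the data), and 1.57 to 1.84 in single replicates, where the higher value is replicate 1 alone. Without chromosome V it was 1.38. The standardised ratio, 1.43, was 1.70 with no classes and 1.68 with position alone, and 1.42 to 1.63 over other lists, chosen after seeing the data. Housekeeping genes bound on III numbered 19 in place of 29 when only the nearest 5′ end counted. Words passing on III numbered 149 with windows of 51 bp and 160 with words of 7 bases, in place of 256. The remaining 81 alternatives kept direction and side of the threshold, or moved within the interval. No paired analysis was possible because the study has 1 group. Depth being unknown, no weak region can be called absent.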

Other observations

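The strongest chromosome III windows shared longer words than those above. Among the 12 strongest, 3 words of 8 bases, both strands counted, stood in at least 4 windows each; they were picked for this, so no test is given. AACACGCT stood at rpl-3, tasp-1, cox-5A and rpl-35, and in 1 of the other 254 members. It was found in 0.19% of III flanks, 0.49% of III promoters without a peak and 0.96% of summits on the other autosomes. CACTCCGC stood at rpl-3, tasp-1, tag-340 and rps-1, in 2 of the other 254 members and in 0.43% of the other autosomes' summits. GGAGTGTA stood at rpl-3, tasp-1 and rps-1 and near col-94, in 1 of the other 254 members and in 0.32% of those summits. Their number among the 12 strongest was fixed by this choice. AACACGCT stood at 9 summits of the other autosomes and in 12 of 2444 III promoters without a peak, against 5 III summits in all. The rpl-35 window, which holds none of the 10 shorter words, holds AACACGCT.

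The segments with the highest and the lowest density per gene, picked for this and not tested, were 9 and 1. Segment 9 of 10 held 30 peaks on 204 genes, 7 of them in housekeeping lists, and segment 1 held 15 peaks on 246 genes, 9 of them in housekeeping lists. Contrast families had 10 genes in segment 9 and 48 in segment 1.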
